A study of Mus musculus with 8 samples.

Results

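Costimulatory and checkpoint molecules are surface or secreted proteins with which a macrophage tunes the T cells it meets. The 10 genes described here, chosen by symbol, were Cd80, Cd86, Icosl, Tnfsf9, Cd40, Cd274, Pdcd1lg2, Havcr2, Lgals9 and Sema4d, out of 15521 genes in the table. All 10 were in it, and 9 passed the filter on low counts, which kept 11621 genes; Cd40 did not. The choice of these genes used no measured value, although it was made with earlier results of these data known.

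CD80 and CD86 engage CD28 on T cells, the classical second signal for activation, and also CTLA-4, which restrains it. ICOS ligand and 4-1BB ligand (Tnfsf9) act on receptors of already activated T cells, and CD40 on the macrophage receives CD40 ligand from helper T cells. PD-L1 (Cd274) and PD-L2 (Pdcd1lg2) bind PD-1 and dampen T cells, galectin-9 (Lgals9) is a lectin known as a ligand of TIM-3 (Havcr2), and semaphorin 4D (Sema4d) signals through plexin B receptors and CD72. Alveolar macrophages live on the air side of the lung and are known as poor stimulators of T cells at rest.

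In all groups, mouse alveolar macrophages were washed out of the lungs, left to adhere for 2 h and kept with GM-CSF (10 ng/ml), a growth factor on which they depend. Each received DMSO (vehicle) or MSDC at 10 µM for 2 h and then no stimulus or Poly(I:C), a synthetic double-stranded RNA that mimics viral RNA, at 5 µg/mL for 24 h (overnight in the series description). Compounds with MSDC code names bind the pyruvate carrier of mitochondria; which of them was used is not given. Each of the 4 groups held 2 libraries: vehicle or MSDC alone, and Poly(I:C) with either. Mouse strain, age and number of animals are not given in the sources used here, nor whether the libraries of a group came from separate cultures, so the spread that the p-values rest on may be technical.

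Libraries held 28762425 to 29493223 counts, and 3 counts correspond to 0.102 to 0.104 CPM (counts scaled to library size), for counting error only. The correlation of log2 CPM was at least 0.9857 within a group and at most 0.9716 between groups. The vehicle libraries differed most from each other, with a chi-square statistic per degree of freedom of 14.7 against 4.26 to 6.30 in the other groups, and Irf7, an interferon-induced factor, stood at 15.5 and 6.24 CPM in them. All 12 alveolar macrophage markers were detected, but 11 of them changed with MSDC in unstimulated cells. Of these, 6 rose, among them Marco from 357.8 to 1037 CPM and Krt79 from 6.52 to 94.3 CPM as group means, and 5 fell, among them Chil3 from 6483 to 3667 CPM. Siglecf (304.8 to 334 CPM over the 4 groups) was not called. Irf7 was at 406.8 CPM or more in each stimulated library, as Poly(I:C) labels imply, and Mpc2, a subunit of the pyruvate carrier, was at 91.2 CPM or more in each MSDC library and at 28.1 or less in each other.

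Levels are given as TPM, a unit scaled to gene length, so that they can be compared between genes. In vehicle cells Lgals9 was the most abundant of the 10, at 152 and 125.6 TPM. Cd274 (71.6 and 59.9 TPM) and Havcr2 (61.4 and 60.3 TPM) followed and overlapped with each other. A group of lower genes held Cd80 at 11.9 and 11, Icosl at 9.70 and 9 and Sema4d at 7.38 and 7.28 TPM, and each of these neighbours was apart. Cd86 came next at 2.32 and 2.47 TPM, then Tnfsf9 (1.21 and 2.3) and Pdcd1lg2 (1.44 and 1.37), which overlapped, and Cd40 was lowest at 0.13 and 0 TPM. The resting cells thus held Cd274 and Havcr2 at levels above those of 80.4 and 79.2% of tested genes, and Cd86 at a level above 16.4%. Per length, Cd274 was 6 and 5.44 times Cd80 in the vehicle libraries, whereas Pdcd1lg2 was below both Cd80 and Cd86.

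**Figure D1:**
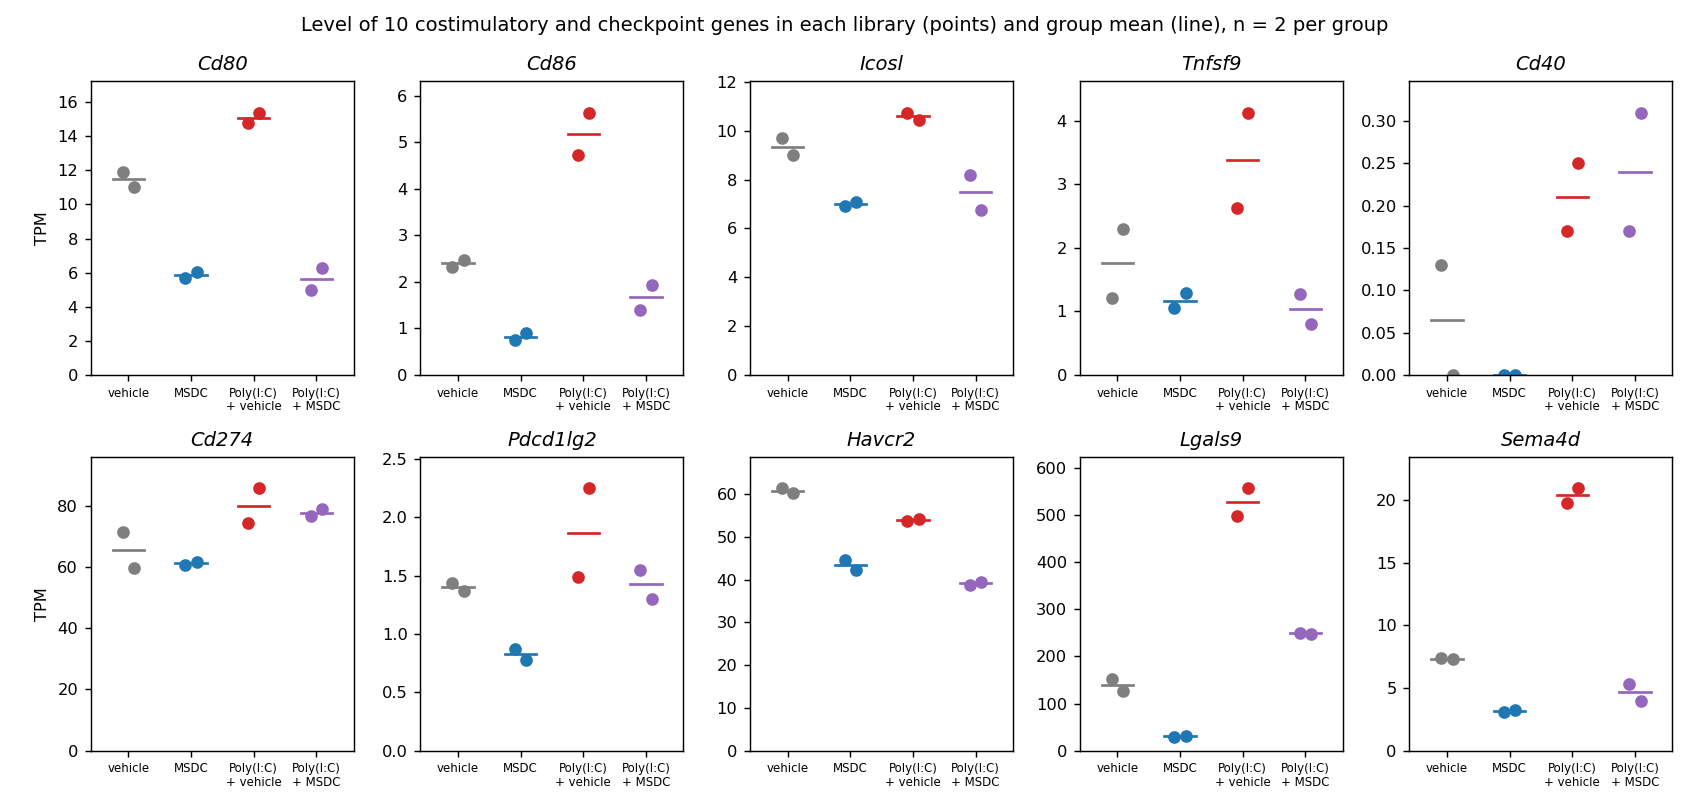
TPM (vertical axes, each starting at 0) of the 10 genes in the 4 groups; points are libraries (n = 2 per group) and lines are group means. All genes except Havcr2 and Cd40 have their highest group mean with Poly(I:C) and vehicle, among them Lgals9, Sema4d and Cd86. Cd274 changes little between columns, and Cd40 stays under 0.4 TPM.

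Each change is a log2 fold change, with its standard error (SE), from 1 edgeR quasi-likelihood model of all libraries. A gene is said to have risen or fallen where the Benjamini-Hochberg adjusted p over all tested genes was under 0.05. The interaction is the response to Poly(I:C) in MSDC minus that in vehicle. In vehicle cells Poly(I:C) raised 5 of the 9 tested genes and lowered 0, where 7.52% of all tested genes rose, 4.1% fell and 11.6% did either. In MSDC cells it raised 4 and lowered 0, against 4.82, 1.5 and 6.32%. MSDC lowered 6 of the 9 in unstimulated cells and raised 0, where 12.4% of tested genes fell, 11.1% rose and 23.5% did either. In stimulated cells it lowered 7 of the 9 and raised 0, against 13.6, 12.5 and 26.1%. The counts of 0 were also 0 with DESeq2. At an unadjusted p under 0.05 they stayed 0, except that Havcr2 was lower with Poly(I:C) in MSDC. Library ranges in CPM did not overlap for 10, 8, 8 and 7 of the 10 genes in these 4 comparisons, in the order given, against 49.7, 49.7, 57 and 62% of tested genes. The median log2 fold change of the 9 was 0.53, 0.35, -0.74 and -1.12 in these 4 comparisons, in that order, and that of all tested genes 0.00, 0.00, -0.00 and -0.00. Comparisons that share a group (both uses of the vehicle libraries, for example) are not independent of each other. In bulk RNA, fewer cells of a type and less RNA per cell cannot be told apart.

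**Figure D2:**
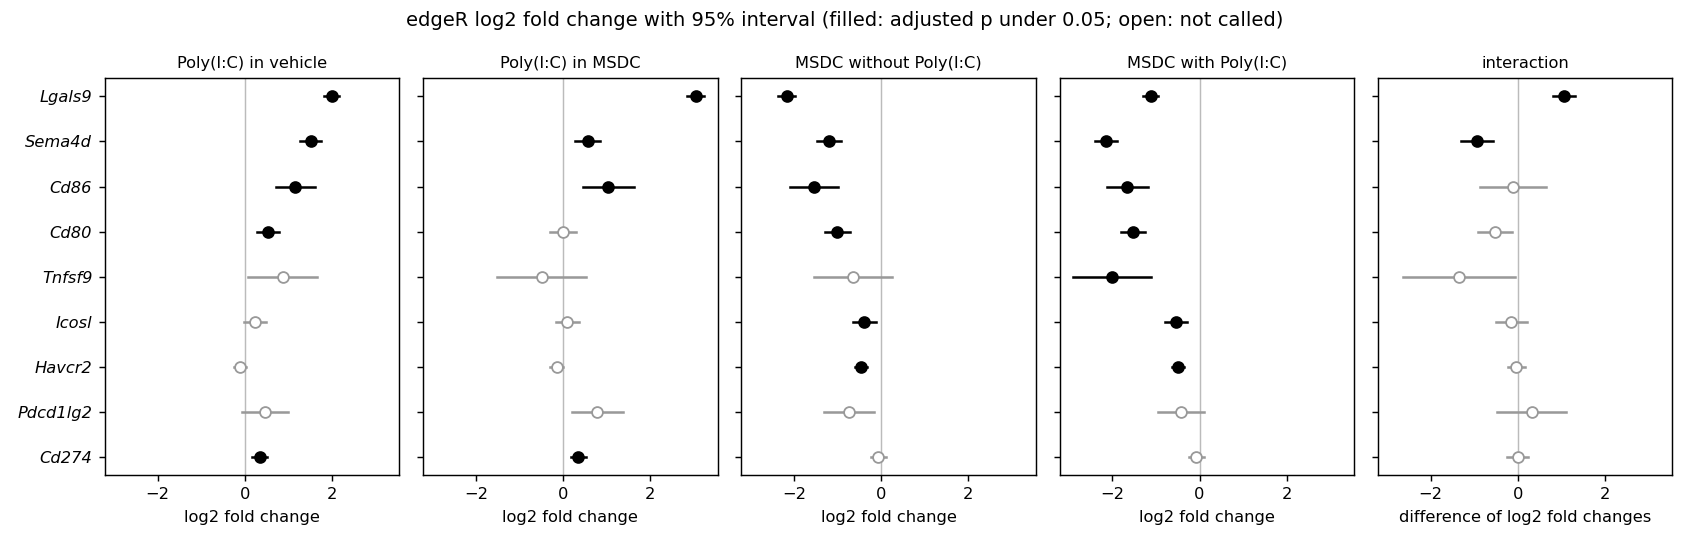
Log2 fold change (horizontal axes) of the 9 tested genes in the 4 comparisons and the interaction, with 95% intervals; filled points passed the test and open ones did not. All filled points lie right of 0 for Poly(I:C) and left of 0 for MSDC, and only Lgals9 and Sema4d are filled in the interaction.

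The stretches before the annotated starts of Lgals9, Cd274 and Cd80 are shown as examples of genes that Poly(I:C) raised in vehicle cells (3.98-, 1.27- and 1.44-fold) and that have 1 window each. Sema4d, raised 2.86-fold, has 3 windows and is described by its matches only. RefSeq windows of 300 bases (250 before and 50 after a start, GRCm38.p6) were found for 7 of the 10 genes, 9 windows in all, and searched on both strands for GAAA and GAAA spaced by 2 bases (a core of the interferon-stimulated response element), TTC and GAA spaced by 3 (a core of the gamma-activated site) and GGGA and CC spaced by 4 (an NF-kB core). Among 32851 such windows of all genes, 3.44, 8.30 and 20.7% held a match. Of the 7 genes Lgals9 alone matched the first, at -55 and at 16 from the start, both on the reverse strand; no member window matched the second. The third matched in Lgals9, Cd80, Icosl, Pdcd1lg2 and 2 of the 3 Sema4d windows. A match is a run of letters and not a shown binding site, and the lack of one says nothing on a factor. Capitals mark matches in the 250 bases before each start, which lie at chr11:78984925-78985174 (minus strand), chr19:29367188-29367437 (plus) and chr16:38458683-38458932 (plus), and in the stretch after the Lgals9 start, at chr11:78984895-78984914.
Lgals9: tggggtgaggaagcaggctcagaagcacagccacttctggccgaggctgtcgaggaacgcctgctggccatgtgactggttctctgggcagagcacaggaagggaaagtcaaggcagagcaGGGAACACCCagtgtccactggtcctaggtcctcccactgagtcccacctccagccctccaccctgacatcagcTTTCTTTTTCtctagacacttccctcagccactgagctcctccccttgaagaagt
Lgals9 after the start: tgtggTTTCTGTTTCctagc
Cd274: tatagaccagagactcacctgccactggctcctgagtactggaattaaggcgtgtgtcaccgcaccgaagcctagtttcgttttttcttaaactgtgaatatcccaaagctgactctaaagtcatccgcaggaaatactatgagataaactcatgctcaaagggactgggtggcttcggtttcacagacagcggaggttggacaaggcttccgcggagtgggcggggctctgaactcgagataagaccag
Cd80: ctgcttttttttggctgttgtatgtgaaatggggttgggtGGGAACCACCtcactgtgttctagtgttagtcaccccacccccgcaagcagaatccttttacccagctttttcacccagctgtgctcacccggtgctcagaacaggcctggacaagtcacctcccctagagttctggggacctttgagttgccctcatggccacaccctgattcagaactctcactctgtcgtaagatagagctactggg

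The CD28 ligands are encoded on mouse chromosome 16 (GRCm38), Cd86 at chr16:36603869-36666081 on the minus strand and Cd80 at chr16:38455561-38496335 on the plus strand. Cd80 was at 11.9 and 11 TPM in vehicle, 5.66 and 6.05 in MSDC, 14.8 and 15.4 in Poly(I:C) with vehicle and 5.00 and 6.27 in Poly(I:C) with MSDC. The groups given vehicle were above both MSDC groups without overlap, and the MSDC groups overlapped each other. Poly(I:C) raised Cd80 in vehicle cells by 0.53 (SE 0.12, adjusted p = 0.00766), and without stimulated vehicle replicate 2 the value was 0.46 and not called (adjusted p = 0.0703). Nor was it called with limma on TPM (0.39 and 0.37 with pseudocounts of 0.1 and 1, adjusted p = 0.0796 and 0.0684). In MSDC cells the value was 0.00 (SE 0.14, 95% interval -0.30 to 0.31, adjusted p = 0.993), and its sign differed between settings. MSDC lowered Cd80 2.01-fold in unstimulated cells (-1.01, SE 0.13) and 2.88-fold in stimulated cells (-1.53, SE 0.13). The difference between the responses was -0.52 (95% interval -0.92 to -0.13) and was not called (adjusted p = 0.576).

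Cd86 was at 2.32 and 2.47 TPM in vehicle, 0.75 and 0.89 in MSDC, 4.73 and 5.64 in Poly(I:C) with vehicle and 1.4 and 1.94 in Poly(I:C) with MSDC. No groups overlapped, and the stimulated MSDC cells stayed below unstimulated vehicle cells. Counts behind these levels were low, from 27 to 207 per library. Poly(I:C) raised Cd86 2.23-fold in vehicle (1.16, SE 0.21, adjusted p = 0.00137) and 2.06-fold in MSDC (1.04, SE 0.27, adjusted p = 0.0317). The second rise was not called without MSDC replicate 1 (0.90, adjusted p = 0.237), without MSDC replicate 2 (1.19, adjusted p = 0.106) or without replicate 2 of Poly(I:C) with MSDC (0.77, adjusted p = 0.317). MSDC lowered Cd86 2.92-fold without Poly(I:C) (-1.55, SE 0.26) and 3.16-fold with it (-1.66, SE 0.22). The interaction was -0.11 with a 95% interval from -0.87 to 0.64, so differences of that size between the responses could not be resolved.

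The balance between the CD28 ligands differed with stimulation and with MSDC. The ratio of Cd80 to Cd86, per length, was 5.14 and 4.45 in the vehicle libraries and 7.55 and 6.80 in MSDC. It was 3.12 and 2.73 in Poly(I:C) with vehicle and 3.57 and 3.23 in Poly(I:C) with MSDC. Every stimulated library was below every unstimulated library in this ratio. Within each state the MSDC libraries were above the vehicle libraries. The ratio was not tested.

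Icosl (chr10:78069302-78083913, plus strand) moved less. It was at 9.70 and 9 TPM in vehicle, 6.93 and 7.10 in MSDC, 10.8 and 10.4 in Poly(I:C) with vehicle and 8.20 and 6.77 in Poly(I:C) with MSDC, so that both MSDC groups were below both vehicle groups. Poly(I:C) did not pass the test in vehicle (0.24, SE 0.12, adjusted p = 0.223) or in MSDC (0.09, SE 0.12, adjusted p = 0.786). MSDC lowered Icosl 1.31-fold in unstimulated cells (-0.39, SE 0.12, adjusted p = 0.0292) and 1.45-fold in stimulated cells (-0.53, SE 0.12, adjusted p = 0.00315). The first fall was not called with DESeq2 (-0.39, adjusted p = 0.0522), without vehicle replicate 1 (-0.35) or without MSDC replicate 1 (-0.36) or 2 (-0.41). The second was not called without replicate 2 of Poly(I:C) with MSDC (-0.40, adjusted p = 0.0624).

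Tnfsf9, at chr17:57105325-57107757 on the plus strand, was read from few counts. They were 21 and 32 in vehicle, 17 and 16 in MSDC, 47 and 46 in Poly(I:C) with vehicle and 14 and 9 in Poly(I:C) with MSDC. The stimulated vehicle libraries were the highest and the stimulated MSDC libraries the lowest. MSDC lowered the gene 4.02-fold in stimulated cells (-2.01, SE 0.42, adjusted p = 0.0019), a call that held in each alternative fit. The other comparisons did not pass: Poly(I:C) gave 0.87 (SE 0.37, adjusted p = 0.16) in vehicle and -0.49 (SE 0.48, adjusted p = 0.704) in MSDC, and MSDC alone gave -0.65 (SE 0.42, adjusted p = 0.325). The interaction of -1.36 (95% interval -2.65 to -0.06) was not called either (adjusted p = 0.742). The deposited FPKM and counts of Tnfsf9 imply a length between 717 and 1159 bases over the 7 libraries with more than 10 counts, a 1.62-fold span, against at most 1.14-fold for the other tested members. Its TPM of 2.63 and 4.13 in Poly(I:C) with vehicle therefore differed between replicates although the counts did not.

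Cd40 (chr2:165055627-165072948, plus strand) was near the limit of detection in all groups. It had 3 and 0 counts in vehicle, 0 and 0 in MSDC, 4 and 6 in Poly(I:C) with vehicle and 4 and 7 in Poly(I:C) with MSDC. Each stimulated library had more counts than each unstimulated one. Over the group, the stimulated vehicle libraries held 3.35 times the level of the unstimulated ones with a 95% counting interval from 0.862 to 18.9. MSDC alone had 0 counts, so it was set to a floor of 3 counts for the group as a whole. Against that floor the ratio of the stimulated MSDC libraries was at least 3.69, a bound and not an estimate like the first ratio. That ratio takes the 11 counts of the stimulated MSDC libraries as exact, and neither ratio includes the spread between libraries. The gene was not tested, and the interval of the first ratio includes no change.

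The PD-1 ligands are neighbours on chromosome 19, Cd274 at chr19:29367455-29388095 and Pdcd1lg2 at chr19:29410919-29471161, both on the plus strand and 22824 bases apart. Cd274 was at 71.6 and 59.9 TPM in vehicle, 60.9 and 61.7 in MSDC, 74.4 and 85.9 in Poly(I:C) with vehicle and 76.8 and 79.0 in Poly(I:C) with MSDC. All stimulated libraries were above all unstimulated ones, and within each state the MSDC and vehicle groups overlapped. Poly(I:C) raised Cd274 1.27-fold in vehicle (0.35, SE 0.08, adjusted p = 0.00904) and 1.27-fold in MSDC (0.35, SE 0.08, adjusted p = 0.0149). Neither rise was called with limma on TPM (0.29 and 0.28 in vehicle, 0.35 and 0.34 in MSDC, with adjusted p from 0.0589 to 0.0718), and both calls were also lost without single libraries. The first was 0.24 (adjusted p = 0.142) without stimulated vehicle replicate 2. The second was not called without MSDC replicate 1 (0.33) or 2 (0.35), nor without stimulated MSDC replicate 1 (0.36) or 2 (0.33), with adjusted p from 0.0862 to 0.15. MSDC did not pass the test in unstimulated (-0.07, 95% interval -0.24 to 0.10, adjusted p = 0.598) or stimulated cells (-0.07, 95% interval -0.24 to 0.10, adjusted p = 0.561). An annotated antisense transcript shares 511 exonic bases with Cd274 and a lincRNA on the opposite strand 192 with Tnfsf9, and since the counting is not stated to use strand, reads from these cannot be told apart.

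Pdcd1lg2 was at 1.44 and 1.37 TPM in vehicle, 0.87 and 0.78 in MSDC, 1.49 and 2.25 in Poly(I:C) with vehicle and 1.55 and 1.30 in Poly(I:C) with MSDC. The MSDC libraries were lowest, and the stimulated groups overlapped. None of its comparisons passed the test. Poly(I:C) gave 0.47 (SE 0.25, adjusted p = 0.268) in vehicle and 0.79 (SE 0.27, adjusted p = 0.123) in MSDC, and MSDC gave -0.74 (SE 0.27, adjusted p = 0.0646) without and -0.43 (SE 0.25, adjusted p = 0.243) with Poly(I:C). The third of these was called without the expression filter (-0.735, adjusted p = 0.0383) and without either library of Poly(I:C) with vehicle (-0.74 in both). Cd274 exceeded it 38.2- to 79.0-fold per length in every library.

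Galectin-9 had the widest range of the 10 genes in absolute level. Lgals9 (chr11:78962974-78984946, minus strand) was at 152 and 125.6 TPM in vehicle, 28.9 and 31.6 in MSDC, 499.2 and 557.3 in Poly(I:C) with vehicle and 250 and 248.6 in Poly(I:C) with MSDC. No groups overlapped, and the stimulated MSDC cells lay between both vehicle groups. Poly(I:C) raised it 3.98-fold in vehicle (1.99, SE 0.08, adjusted p = 6.2e-11) and 8.27-fold in MSDC (3.05, SE 0.09, adjusted p = 1.8e-12). MSDC lowered it 4.50-fold in unstimulated cells (-2.17, SE 0.09) and 2.17-fold in stimulated cells (-1.12, SE 0.08). The interaction of 1.05 (SE 0.12, adjusted p = 0.000622) was called in each alternative fit, where 0.12% of all tested genes were called higher, 0.103% lower and 0.224% in either direction. On the log scale the response was thus larger in MSDC cells, from a lower start to a lower end.

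Its receptor gene Havcr2, at chr11:46454935-46481255 on the plus strand, was at 61.4 and 60.3 TPM in vehicle, 44.6 and 42.2 in MSDC, 53.7 and 54.2 in Poly(I:C) with vehicle and 38.9 and 39.5 in Poly(I:C) with MSDC. No groups overlapped, and replicates lay close together. MSDC lowered Havcr2 1.38-fold without Poly(I:C) (-0.46, SE 0.07, adjusted p = 5.7e-05) and 1.41-fold with it (-0.49, SE 0.07, adjusted p = 2.9e-05). Poly(I:C) did not pass the test in vehicle (-0.11, SE 0.06, adjusted p = 0.314) or in MSDC (-0.15, SE 0.07, adjusted p = 0.287), and the interaction was -0.03 (95% interval -0.23 to 0.16). Ligand and receptor therefore changed places: per length, Lgals9 was 2.48 and 2.08 times Havcr2 in vehicle and 0.647 and 0.748 times in MSDC. With Poly(I:C) it was 9.29 and 10.3 times Havcr2 in vehicle and 6.44 and 6.29 times in MSDC.

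Sema4d, at chr13:51685529-51793747 on the minus strand, was at 7.38 and 7.28 TPM in vehicle, 3.06 and 3.24 in MSDC, 19.8 and 20.9 in Poly(I:C) with vehicle and 5.34 and 3.99 in Poly(I:C) with MSDC. The stimulated vehicle cells stood far above the rest, and the stimulated MSDC cells stayed below unstimulated vehicle cells. Poly(I:C) raised Sema4d 2.86-fold in vehicle (1.51, SE 0.11, adjusted p = 7.7e-08) and 1.49-fold in MSDC (0.57, SE 0.13, adjusted p = 0.0151). The rise in MSDC was not called without MSDC replicate 1 (0.55) or 2 (0.58), without replicate 1 of Poly(I:C) with MSDC (0.34, adjusted p = 0.247) or with limma on TPM (0.54 and 0.44 with pseudocounts of 0.1 and 1). MSDC lowered the gene 2.31-fold in unstimulated cells (-1.21, SE 0.13) and 4.44-fold in stimulated cells (-2.15, SE 0.12), in each alternative fit. The interaction was -0.94 (SE 0.17, 95% interval -1.32 to -0.57, adjusted p = 0.0423), opposite in sign to that of Lgals9. That call held without either vehicle library or replicate 1 of Poly(I:C) with MSDC. It was lost without MSDC replicate 1 (-0.97, adjusted p = 0.137) or 2 (-0.93, 0.179), without stimulated vehicle replicate 1 (-0.97, 0.094) or 2 (-0.93, 0.101), and without replicate 2 of Poly(I:C) with MSDC (-0.74, 0.167). It was also lost with library totals alone (-0.91, adjusted p = 0.0581) and with limma on TPM (-0.92 with either pseudocount). A DESeq2 fit called it.

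Over the 8 libraries the 9 genes formed no single pattern, as described by Pearson's r of log2 CPM, whose points share 4 treatments. Sema4d ran closely with Icosl (r = 0.956), Cd86 (0.949) and Cd80 (0.925), and Pdcd1lg2 with Lgals9 (0.926). Havcr2 and Cd274 had r = -0.067. The genes most like each member were sought among 9050 or 9051 genes with a mean of at least 5 CPM. For Cd80 they were Dusp1 (r = 0.9973), Rgs2 (0.9929) and Lgmn (0.9919), and for Cd86 Ctss (0.9937), the gene of cathepsin S, Rpn2 (0.9926) and Hk3 (0.9904). Those of Lgals9 were Milr1 (0.9943), Cysltr1 (0.9916) and Ms4a6c (0.9909), and those of Sema4d Evi2a (0.9937), Ass1 (0.9936) and Dpep2 (0.9932). Havcr2 was most like Furin (0.9944), Cd274 like Cnot8 (0.9841), Icosl like Cmklr1 (0.9841), Tnfsf9 like Ehbp1 (0.991) and Pdcd1lg2 like Irf2 (0.9756).

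Around these genes, 8 lists of related genes held 103 symbols, of which 98 were in the table and 85 were tested. Poly(I:C) raised 22 and lowered 2 of them in vehicle and raised 11 and lowered 3 in MSDC. MSDC raised 8 and lowered 34 in unstimulated cells and raised 3 and lowered 37 in stimulated cells. Of all tested genes, Poly(I:C) raised 7.52% and lowered 4.1% in vehicle, and raised 4.82% and lowered 1.5% in MSDC. MSDC raised 11.1% and lowered 12.4% of them in unstimulated cells, and raised 12.5% and lowered 13.6% in stimulated cells. The same shares stand beside the counts for single lists given below. The medians of the 85 were 0.13, 0.03, -0.17 and -0.21 in this order, smaller in size than those of the members.

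Among TNF superfamily ligands, kin of Tnfsf9, 4 of 9 fell with MSDC in unstimulated cells and 7 of 9 in stimulated cells. The ligands of GITR and OX40 were close to 0 with MSDC. Tnfsf18 had 40 and 33 counts in vehicle and 2 and 0 in MSDC, a ratio of 36.7 (95% counting interval 9.79 to 308.5). With Poly(I:C) it had 82 and 67 counts in vehicle and 1 and 0 in MSDC, a ratio of 149.4 (26.4 to 5941). Tnfsf4 had 13 and 15 counts in vehicle and 1 and 2 in MSDC, a ratio of 9.38 (2.90 to 48.2), and this call was lost without MSDC replicate 1 (adjusted p = 0.0959) or 2 (0.0537). With Poly(I:C) it had 32 and 40 counts in vehicle and 2 and 0 in MSDC, a ratio of 36.1 (9.64 to 303.8). Tnfsf10, the death ligand TRAIL, rose with Poly(I:C) by 3.59 (SE 0.25) in vehicle and 4.36 (SE 0.32) in MSDC.

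Of 5 tested genes of the B7, butyrophilin and nectin list, the checkpoint gene Vsir (VISTA) fell in all 4 comparisons. It stood at 73.3 and 65.4 TPM in vehicle, 31.5 and 30.9 in MSDC, 42.5 and 43.6 in Poly(I:C) with vehicle and 22.1 and 22.7 in Poly(I:C) with MSDC. Poly(I:C) thus lowered Vsir (-0.63, SE 0.06, in vehicle) where it raised Cd274. Among 13 other accessory and inhibitory surface molecules, MSDC lowered 7 in each state and raised 2 in unstimulated and 1 in stimulated cells. Cd47, the "don't eat me" signal, rose by 0.74 (SE 0.06) in unstimulated and 0.62 (SE 0.06) in stimulated cells. Slamf7, an activating receptor, rose with Poly(I:C) by 1.33 (SE 0.12) in vehicle and fell with MSDC (-2.11, SE 0.15, without Poly(I:C) and -2.10, SE 0.13, with it). Sema4a, another class 4 semaphorin, fell with MSDC in unstimulated (-0.89, SE 0.07) and stimulated cells (-0.87, SE 0.07), as Sema4d did. Unlike Sema4d, it did not pass the test with Poly(I:C) in vehicle (-0.03, SE 0.06). Of the other galectins, Lgals8 rose by 0.39 (SE 0.06) with Poly(I:C) in vehicle and gave 0.08 (SE 0.06, adjusted p = 0.469) with MSDC in unstimulated cells. Lgals4, read from 8 to 117 counts per library, rose with MSDC by 1.65 (SE 0.39) in unstimulated and 2.38 (SE 0.40) in stimulated cells, opposite to Lgals9.

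Of 11 receptor genes of the members in the table, 7 were tested. Pdcd1 had no count in any library and Cd28 had 2 to 5, both named after their values were seen. Plxnb2, a plexin B receptor, was at 19.8 to 29.5 TPM and fell with MSDC in both states (-0.36, SE 0.08, and -0.38, SE 0.08); these calls were lost without MSDC replicate 2 (-0.29) and without replicate 1 of Poly(I:C) with MSDC (-0.29), respectively. Of 15 genes of CD40 signalling and NF-kB, Poly(I:C) raised 3 in vehicle: Tnfaip3 (0.50, SE 0.09), Birc2 (0.42, SE 0.12) and Birc3 (0.38, SE 0.11). The Birc2 and Birc3 calls were lost with DESeq2 (0.41 and 0.37), with library totals alone (0.36 and 0.33), with limma, with these 2 groups fitted alone and in most fits without 1 library. Without stimulated vehicle replicate 1 the values were 0.36 and 0.32. MSDC lowered 5 of the 15 in stimulated cells, among them Birc3 (-0.81, SE 0.12).

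A list of 18 genes of interferon signalling, known to induce PD-L1, held receptors, their kinases, STATs, IRFs and a feedback inhibitor. Of the 18, 10 rose with Poly(I:C) in vehicle and 7 in MSDC, the inhibitor and a kinase among them in each. MSDC lowered 12 of the 18 in unstimulated and 9 in stimulated cells and raised 0. Stat2 rose by 2.3 (SE 0.09) in vehicle and 2.52 (SE 0.09) in MSDC. Irf9, a DNA-binding partner of Stat2, rose by 1.79 (SE 0.12) and 2.89 (SE 0.13). MSDC lowered Irf9 in unstimulated cells (-1.21, SE 0.14) and did not pass the test in stimulated cells (-0.11, SE 0.11, adjusted p = 0.546). The interaction of Irf9, 1.10 (SE 0.18, adjusted p = 0.0134), had the sign of that of Lgals9, which MSDC lowered in both states. This call was lost without MSDC replicate 1 (0.96), without stimulated vehicle replicate 1 (1.07), without replicate 1 (1.06) or 2 (1.14) of Poly(I:C) with MSDC and with limma. Irf4 fell with MSDC in both states (-2.85, SE 0.13, in each) and gave 0.00 (SE 0.11) with Poly(I:C) in vehicle. In the list of turnover and shedding, Marchf1, a ubiquitin ligase that removes CD86 from the surface, rose with Poly(I:C) in vehicle (0.52, SE 0.08) and fell with MSDC (-0.42, SE 0.09, and -0.76, SE 0.08). Mmp14, a protease known to shed semaphorin 4D, fell with MSDC (-1.89, SE 0.15, and -2.52, SE 0.15), as did Cmtm6, which protects PD-L1 from degradation (-0.31, SE 0.07, and -0.27, SE 0.07). The Cmtm6 calls were lost without MSDC replicate 1 (-0.29), and without stimulated vehicle replicate 2 (-0.24) or replicate 1 of Poly(I:C) with MSDC (-0.21).

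**Figure D3:**
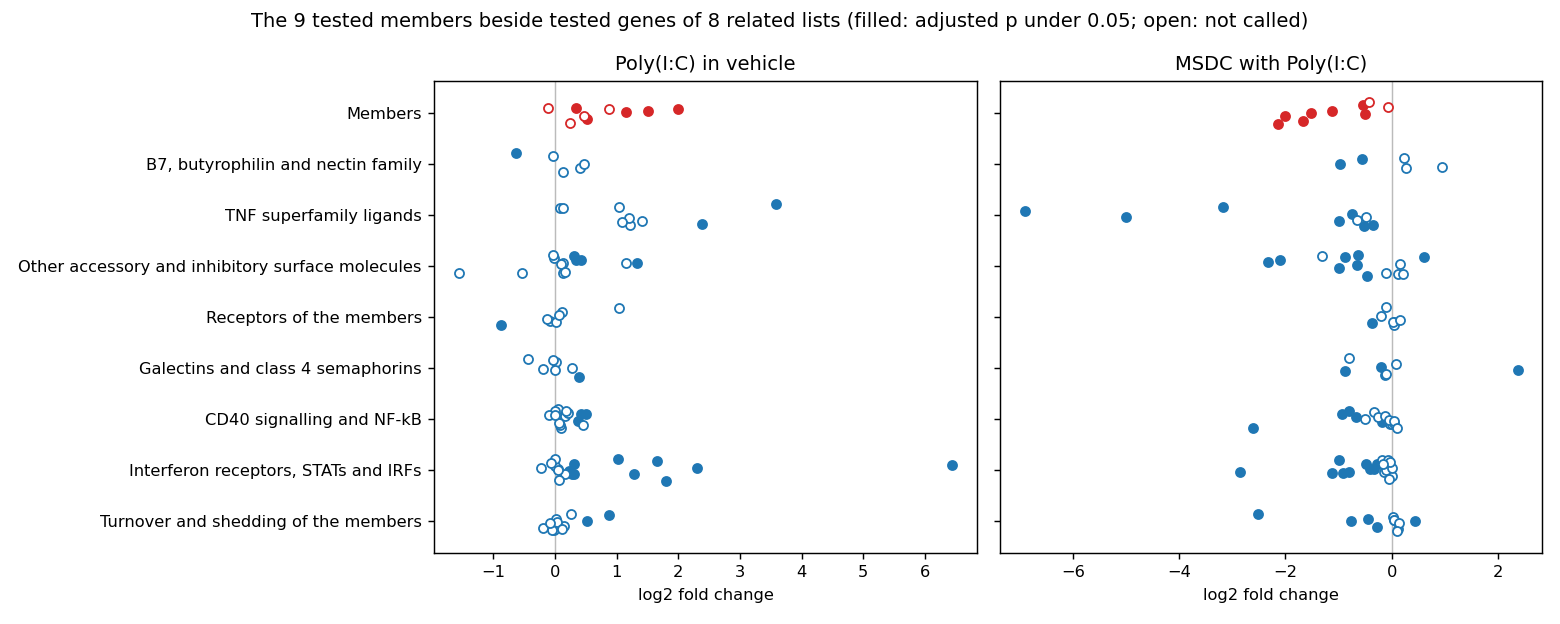
Log2 fold change (horizontal axes) of the 9 tested members (red) and of tested genes in 8 related lists (blue) for Poly(I:C) in vehicle and MSDC with Poly(I:C); each point is a gene, filled where adjusted p was under 0.05, and vertical spread within a row has no meaning. Members lie mostly right of 0 on the left and left of 0 on the right. In the right panel Tnfsf18 and Tnfsf4 are the leftmost points of the TNF ligands.

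Markers of other cells were checked because dendritic cells and monocytes also express these molecules. The summed level of 7 dendritic cell markers was 9.21 to 10.8 CPM in vehicle, 5.30 to 6.18 in MSDC, 13.6 to 15.1 in Poly(I:C) with vehicle and 7.37 to 8.73 in Poly(I:C) with MSDC. It moved in the direction of Cd80, Cd86 and Sema4d under MSDC, mostly through Clec9a (5.77, 3.12, 10.6 and 5.47 CPM as group means). Zbtb46 (2.55, 1.04, 2.34 and 0.976 CPM) added to the fall, and both genes were called lower with MSDC in both states. Ccr7 (0.268, 0.342, 0.244 and 0.453 CPM) was instead higher with MSDC in both states, and Fscn1 stood at 1.26, 1.07, 1.03 and 1.05 CPM. Neither Ccr7 nor Fscn1 was called in any comparison. Flt3 had at most 2 counts, Cd209a at most 6 and Xcr1 at most 6.48 in any library. The summed level of 5 monocyte markers was 4.95 to 5.16, 1.08 to 1.58, 6.58 to 7.74 and 1.85 to 3.06 CPM in the same order. Ccr2 was at 3.85, 0.889, 4.17 and 1.20 CPM, Vcan at 1.09, 0.43, 2.80 and 1.20 CPM, and Ly6c2 at 0 in both unstimulated groups. Both Ccr2 and Vcan were called lower with MSDC in both states, and Vcan alone of them higher with Poly(I:C), also in both. The part of dendritic cells and monocytes in the falls of the members was not tested. Of 6 T cell markers in the table, 4 had at most 10 counts in every library, with Cd3e at most 2; Cd2 made up nearly all of the summed 78.7 to 145.4 CPM and fell with MSDC. All 5 B cell and both NK cell markers in the table had at most 10 counts in every library.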

How the data were processed

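RNA was measured in 8 libraries of 4 groups. The deposited table gives, per the file headers, read counts, FPKM and TPM per gene and library. The deposited estimated counts are not scaled to depth; 5.95 to 7.19% of a library's values are not whole, and they were rounded here. The FPKM and TPM values, per the file headers, were scaled by the authors for gene length and depth. GRCm38 (mm10), Cuffdiff, Bowtie2 2.3.4 and TopHat2 2.1.1 are listed, per the submitters' processing notes, without saying which made which column.

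Symbols turned into dates (23) were repaired from gene identifiers, of which 99.3% were in RefSeq. Genes were filtered with filterByExpr, TMM gave scaling factors of 0.985 to 1.027, and edgeR 4.0.16 (R 4.3.3) fitted 1 quasi-likelihood model over the 4 groups, leaving 4 residual degrees of freedom, with p-values adjusted over all 11621 genes within a comparison, two-sided. SE come from the fold change and its F statistic. Intervals are at 95%. DESeq2 1.42.0 and limma 3.58.1 on log2(TPM + 0.1) and log2(TPM + 1) were alternatives. The procedure was tested on simulated data. Positions are from GENCODE M21 (GRCm38), promoter sequences from RefSeq (GRCm38.p6).

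The members, lists and motifs were chosen with earlier results of these data known. Named beyond the members are up to 4 called genes with the smallest p per related list and comparison, the 3 genes most like each member (part of them printed), and genes said to be chosen otherwise; marker and label-check genes are given as levels. One gene of the related lists is not reported here by name.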

Additional observations from a re-analysis of the deposited data

Results flagged for a closer look

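The response to Poly(I:C) differed between MSDC and vehicle cells, by the test of the difference itself, for 3 of the genes described. For Lgals9 the difference was 1.05 on the log2 scale, larger in MSDC. For Sema4d it was -0.94, smaller in MSDC, and for Irf9 it was 1.10, larger in MSDC. The call of Lgals9 held in each alternative, and those of Sema4d and Irf9 did not. Groups of 2 libraries are too small for a check of single outlying libraries.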

How the results depend on the processing

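Leaving out each library in turn gave 3 to 5 members higher with Poly(I:C) in vehicle, 1 to 4 in MSDC, 5 to 7 lower with MSDC alone, 6 to 7 lower with MSDC and Poly(I:C), and 1 higher and 0 to 1 lower in the interaction. With limma on TPM (either pseudocount) 3 members were higher with Poly(I:C) in vehicle, 2 in MSDC and 0 were lower in the interaction, which was also 0 with library totals alone. The falls of Lgals9, Sema4d, Cd80, Cd86 and Havcr2 with MSDC held in every alternative in both states. Correlations of replicate differences over 6 pairs of groups were -0.032 to 0.05, so no common effect of the replicate number was seen. Whether libraries of the same number share an origin is not stated, and such correlations cannot decide it. With the replicate block every call of a member was as without it, and the numbers of members called were 5, 4, 6 and 7 in the 4 comparisons.

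Over all genes, the 477 lower with Poly(I:C) in vehicle became 867 with library totals alone and 256 with these 2 groups fitted alone (210 to 670 leaving out a library). With library totals alone the split of genes higher and lower was 729 and 867, against 874 and 477. The 174 lower in MSDC became 298 without the filter and 429 with 2 groups alone (50 to 421), and the 560 higher became 351 to 729. Those higher with MSDC alone were 849 to 1355. In the interaction, the 14 higher became 23 with DESeq2, 64 without the filter, 3 and 7 with limma (3 to 56 leaving out a library), and the 12 lower became 24 with DESeq2, 52 without the filter, 4 with library totals alone and 2 with limma at a pseudocount of 0.1 (2 to 39). The cause was not tested.

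Signs differed only for values that no fit called. Cd80 with Poly(I:C) in MSDC was -0.0072 with DESeq2, -0.0191 with library totals alone, -0.0624 and -0.0531 with limma, -0.003 with 2 groups alone and -0.1082 to 0.1095 leaving out a library. Leaving out a library, Icosl there ranged from -0.0579 to 0.2327, and Cd274 with MSDC from -0.1726 to 0.0377 in unstimulated and from -0.1688 to 0.0161 in stimulated cells. The interaction of Cd274 was 0.0299 with library totals alone, 0.0004 without the filter, 0.0578 and 0.0569 with limma and -0.1114 to 0.0875 leaving out a library. That of Cd86 ranged from -0.3873 to 0.1147, and that of Havcr2 was 0.0272 and 0.0276 with limma. Depth limits Cd40 and Tnfsf9, which had at most 47 counts in any library.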
